A study of Saccharomyces cerevisiae with 3 samples.

Results

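The comparison set out here is that of the open chromatin of yeast lacking SBA1 with that of yeast lacking GCN5, made directly between their lists of DNase I hypersensitive sites. Its members were the 2438 nuclear sites of the sba1 deletion and the 3061 nuclear sites of the gcn5 deletion, 5499 of the 8758 nuclear sites in the series. They were chosen by strain and chromosome alone, and the wild-type list took no part in defining any set. A site was taken as shared where it overlapped a site of the other list by at least 1 bp, and as found in one strain only where it overlapped none.

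The strains compared were haploid BY4741 (MATa) yeast with genotype sba1-/- or gcn5-/-, as the labels write it, with 1 library each. Both carry a deletion from the Open BioSystems collection, and the unmodified BY4741 parent gave the remaining library of the series. All were grown in rich medium (YPD) with 2% glucose. The sources used here do not say whether each strain was 1 clone. With 1 library a strain there is no replicate check, and the strains were not tested against each other. The 95% intervals below are exact binomial (Clopper-Pearson) intervals that cover counting over sites only.

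DNase I cuts DNA most readily where nucleosomes are missing or loosened, so sequenced cut sites pile up at active promoters and other regulatory DNA. Sba1 is the yeast p23, a co-chaperone of Hsp90 that is also known to loosen protein complexes from DNA. Gcn5 is the histone H3 acetyltransferase of the SAGA coactivator complex, which is recruited to promoters. By its title, the study asked how both proteins together shape the binding of proteins to DNA and the openness of chromatin.

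The deleted genes were examined first. SBA1 (YKL117W, chromosome XI 220324 to 220974, sacCer3) had a promoter site in both lists, at 219362 to 220335 in the sba1 deletion and at 219344 to 220319 in the gcn5 deletion. The sba1 deletion site covered 1.84% of the coding sequence and the gcn5 deletion site none of it. GCN5 (YGR252W, chromosome VII 996869 to 998188) held sites at 997516 to 997738 and 997859 to 998023 in the sba1 deletion, together 29.4% of its coding sequence. In the gcn5 deletion it held none, and a site at 996505 to 996846 ended 23 bp before its start codon. The positions at GCN5 do not go against the strain labels. At SBA1 it was the strain lacking the gene whose site ran into the first bases of its coding sequence. Both genes are a weak check, since wild type had no site in either coding sequence. Neither strain had a site in the promoter or coding sequence of HSP82 or HSC82, the Hsp90 genes.

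The sites found in one strain only lay in different parts of the genome. Of the 744 sites found in the sba1 deletion only, 71.8% (95% interval 68.4 to 75.0) were centred in coding sequence and 21.2% (18.3 to 24.4) in promoter windows. Of the 1199 found in the gcn5 deletion only, 35.6% (32.9 to 38.4) were centred in coding sequence and 47.6% (44.8 to 50.5) in promoter windows. A promoter window is the 500 bp upstream of a start codon, counted only outside coding sequence, and coding sequence runs from start codon to stop codon with any intron. Of the nuclear span 72.9% is coding and 16.0% lies in such windows. The coding share of the sba1-only sites was therefore close to that of the genome, whereas that of the gcn5-only sites was close to that of the shared sites. Shared sites were centred in coding sequence for 32.5% in the sba1 deletion list and 30.2% in the gcn5 deletion list.

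**Figure D1:**
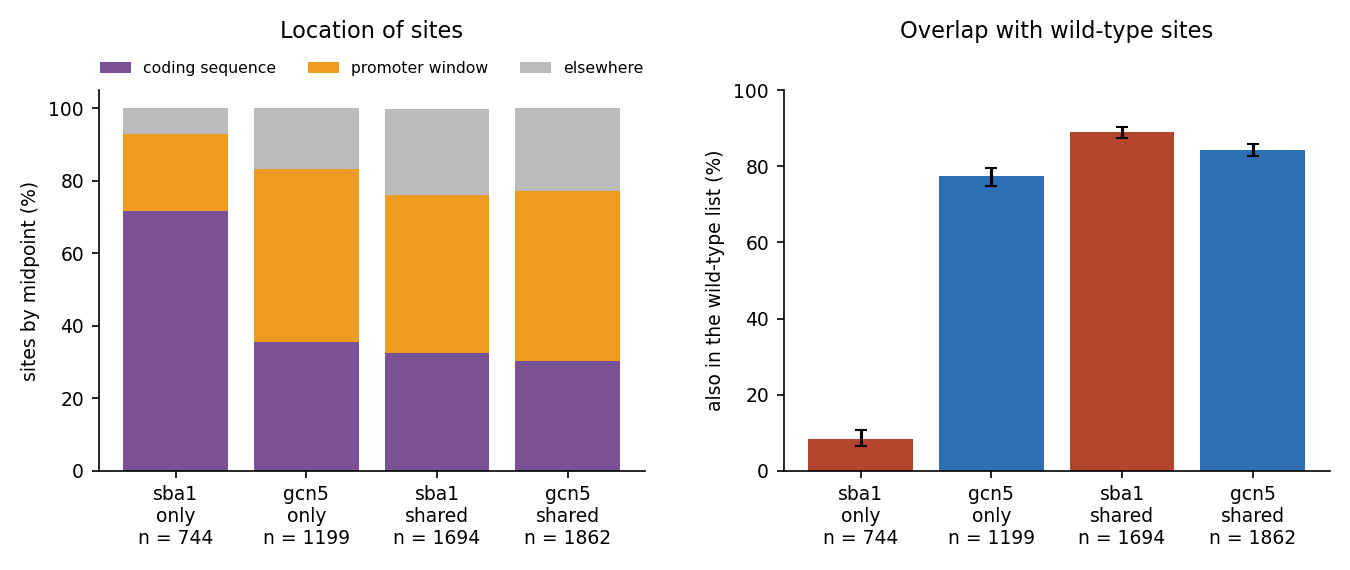
Left, percent of sites whose midpoint lies in coding sequence, in a promoter window or elsewhere, for sites found in one strain only and for shared sites, with n below each bar. Right, percent of those sites that overlap a wild-type site, with 95% binomial intervals as error bars; the sba1-only bars stand apart at 71.8% coding and 8.33% in wild type.

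The wild-type list is a readout that did not define these sets. Of the sites found in the sba1 deletion only, 62 or 8.33% (6.45 to 10.6) overlapped a wild-type site. Of those found in the gcn5 deletion only, 928 or 77.4% (74.9 to 79.7) did. Over the whole lists the shares were 64.4% of sba1 deletion sites and 81.7% of gcn5 deletion sites. The gcn5-only sites were thus near their own list's share, while the sba1-only sites lay far below theirs. All 3 locations showed the split: 6.74% of sba1-only against 79.2% of gcn5-only sites in coding sequence, 11.4% of sba1-only against 75.7% of gcn5-only sites in promoter windows, and 15.4% of sba1-only against 78.6% of gcn5-only sites elsewhere. The sba1-only share depended on the overlap asked for: where 50% of both sites had to overlap for sharing, it was 42.6%, against 75.0% for the gcn5-only sites.

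How many sites each strain had to itself depended on list length. Those found in one strain only made up 30.5% (28.7 to 32.4) of the sba1 deletion list and 39.2% (37.4 to 40.9) of the gcn5 deletion list. With the best-scored 2438 sites taken from each, the shares were 35.2% for the sba1 deletion and 31.2% for the gcn5 deletion, which turned the order. Most were not near misses: 29 sba1-only sites and 27 gcn5-only sites lay within 150 bp of a site of the other list. The median gap was 976 bp for sba1-only sites and 1890 bp for gcn5-only sites.

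Sites found in one strain only were the weaker and narrower part of each list. The authors' score, which has no stated scale and is used here only within a list, had its median for sba1-only sites above 34.1% of the sba1 deletion list, and for gcn5-only sites above 28.1% of the gcn5 deletion list. Median widths were 246 bp for sba1-only and 163 bp for gcn5-only sites, where shared sites had 464 bp in the sba1 deletion list and 392 bp in the gcn5 deletion list. Of the gcn5-only sites 22.6% were under 100 bp wide and the widest was 882 bp. Of the sba1-only sites 11.3% were under 100 bp and 25 were over 1 kb.

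Sharing was greater at higher scores in both strains, from different floors. Each list was cut into 10 bins of equal size by score. In the lowest bin of the sba1 deletion list 54.1% (47.6 to 60.5) of sites overlapped a gcn5 deletion site, whereas in the lowest bin of the gcn5 deletion list 25.1% (20.3 to 30.3) overlapped an sba1 deletion site. In the sba1 deletion the share stayed between 52.5% and 62.6% over bins 1 to 6 and was 80.3% in bin 8. In the gcn5 deletion it was 92.5% in bin 8. In the best-scored bin all 244 sba1 deletion sites and 305 of 306 gcn5 deletion sites were shared. The 1 exception is the site next to the deleted GCN5 gene.

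**Figure D2:**
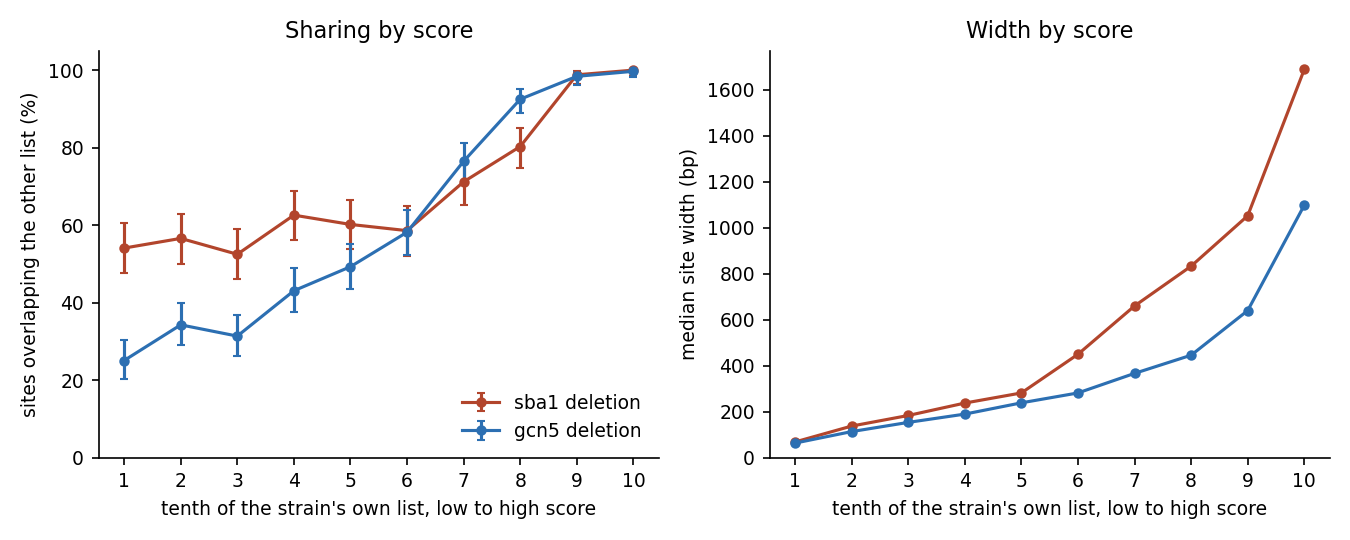
Left, percent of sites that overlap the other strain's list, in 10 equal bins of the strain's own list from low to high score, with 95% binomial intervals. Right, median site width in base pairs in the same bins; sharing reaches 100% in the sba1 deletion and 99.7% for the gcn5 deletion in the top bin, where median widths are 1688 bp in the sba1 deletion against 1098 bp in the gcn5 deletion.

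Where in a gene the strains differed was seen by aligning all 6002 protein-coding genes. Just upstream of the start codon the gcn5 deletion was ahead: at 150 bp upstream 26.0% of genes had a site in the sba1 deletion against 28.8% in the gcn5 deletion, the peak of both profiles. At the start codon the order had turned, with 21.4% in the sba1 deletion against 18.8% in the gcn5 deletion. At 400 bp downstream 14.8% of genes were under a site in the sba1 deletion against 7.38% in the gcn5 deletion, a ratio of 2.01. The same shape recurred at gene ends: 100 bp before the stop codon the values were 12.0% in the sba1 deletion against 7.55% in the gcn5 deletion, and 200 bp after it they were 13.6% in the sba1 deletion against 15.0% in the gcn5 deletion. The gcn5 deletion profile thus dipped in genes and peaked on either side, while the sba1 deletion profile was flatter.

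**Figure D3:**
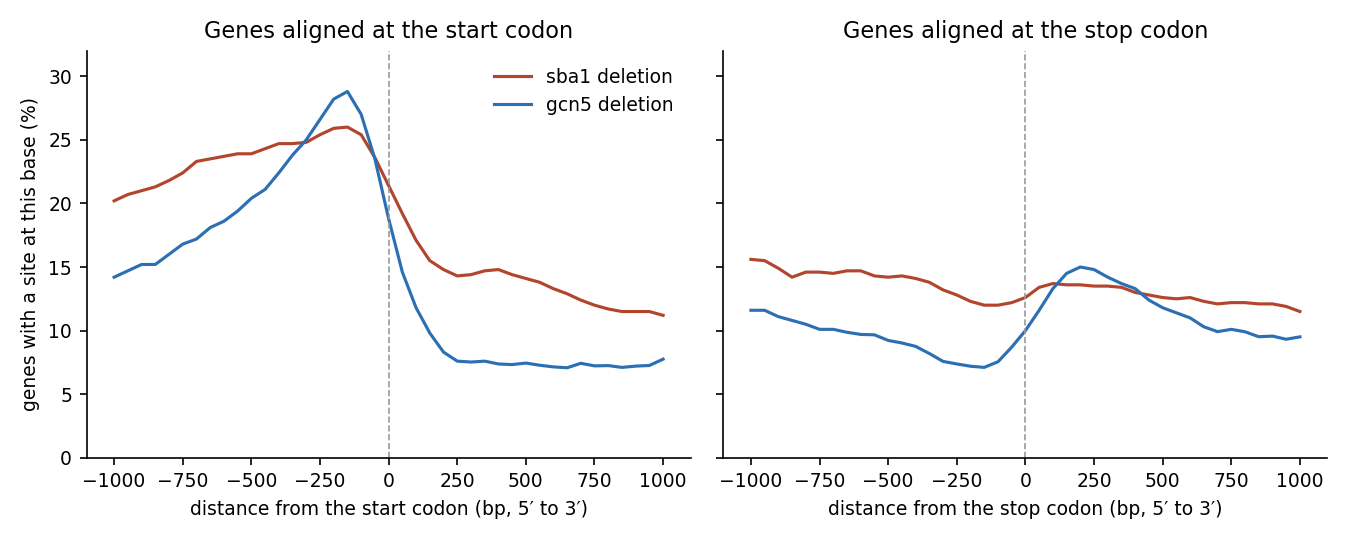
Percent of protein-coding genes with a site at each base, in steps of 50 bp, around the start codon (left) and the stop codon (right), for the sba1 deletion and the gcn5 deletion. The sba1 deletion line lies above the gcn5 deletion line within genes and below it 150 bp upstream of start codons and 200 bp past stop codons.

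Base counts leaned the same way as midpoints. Sites covered 1557 kb of the nuclear genome in the sba1 deletion against 1251 kb in the gcn5 deletion, of which 883 kb was common ground. Coding bases came to 832 kb in the sba1 deletion against 459 kb in the gcn5 deletion, a ratio of 1.81. Noncoding bases came to 725 kb in the sba1 deletion against 792 kb in the gcn5 deletion. The sba1 deletion had 674 kb to itself and the gcn5 deletion 368 kb. In the sba1 deletion 59.7% of this private ground, 402 kb, was not in separate sites but in the parts of shared sites that run beyond their gcn5 deletion counterparts. In the gcn5 deletion that part was 39.8%, or 147 kb. These overhangs were 71.0% coding in the sba1 deletion and 26.0% coding in the gcn5 deletion. The ratio of coding bases depended on wide sites: it was 1.24 without sites over 1 kb and 1.07 where each site was cut or extended to 250 bp about its middle. Sites over 1 kb made up 18.8% of the sba1 deletion list and 8.00% of the gcn5 deletion list.

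Widths of sites that matched 1 to 1 were balanced between the strains as a class, but not in every location, and single pairs differed widely. Sites that overlap several of the other list are not among these pairs. Over 1422 such pairs the median ratio of sba1 deletion to gcn5 deletion width was 1.01 (95% interval of the median 0.968 to 1.05), with quartiles of 0.628 and 1.44. It was 0.996 for the 693 pairs in promoter windows, 1.19 for the 381 in coding sequence and 0.905 for the 348 elsewhere. In coding sequence the sba1 deletion site was the wider in 64.6% of pairs, and elsewhere in 36.8%. For 498 promoter pairs that belong to a single gene, the edge facing the gene reached slightly less far in the sba1 deletion, with a median difference of -13.0 bp and quartiles of -66.0 and 85.0 bp. The tails were unequal: the sba1 deletion site ran over 200 bp further towards the gene in 66 pairs and the gcn5 deletion site in 18. Over 200 bp of coding sequence was reached in 94 pairs by the sba1 deletion site and in 58 by the gcn5 deletion site.

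Several separate gcn5 deletion sites could lie under a single site of the sba1 deletion. This was so for 179 sba1 deletion sites, which took in 396 gcn5 deletion sites, against 46 gcn5 deletion sites that took in 95 of the sba1 deletion. The most joined was an sba1 deletion site of 5.64 kb at chromosome VI 223999 to 229640, which overlaid 6 gcn5 deletion sites. It overlaps CDC26, a subunit gene of the anaphase-promoting complex, RSC8, a subunit gene of the RSC chromatin remodeller, and PHO4, the activator gene of the phosphate response, among others. Another, at chromosome XII 512851 to 516540, overlaid 5 and overlaps TFS1 and SAM1, an S-adenosylmethionine synthetase gene. One more, at chromosome X 35034 to 38059, overlaid 5 and overlaps OPT1, PEX2 and CBP1. The most that a gcn5 deletion site overlaid was 3, at RDT1 and SPB1, at chromosome XVI 776589 to 777974 and at ATP22.

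The sba1 deletion covered more bases on all 16 nuclear chromosomes, from 1.05 times the gcn5 deletion's on chromosome IV to 1.53 times on chromosome I. It had fewer sites on 15 of 16. The exception was chromosome I, with 65 sites in the sba1 deletion against 52 in the gcn5 deletion, where 32 sba1 deletion sites and 15 gcn5 deletion sites were found in that strain only. Within 25 kb of chromosome ends 40 of 141 sba1 deletion sites and 55 of 155 gcn5 deletion sites were found in that strain only. These are 28.4% for the sba1 deletion and 35.5% for the gcn5 deletion, near the 30.5% and 39.2% of the whole lists.

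Outside coding sequence, the neighbours of the sites differed less. Between divergent genes, which share an upstream region, lay 40.5% (33.8 to 47.4) of the noncoding sba1-only sites and 31.1% (27.8 to 34.5) of the gcn5-only sites. Tandem intergenic regions held 51.9% of the sba1-only and 58.4% of the gcn5-only sites, and convergent ones, between gene ends, 7.62% of the sba1-only and 10.5% of the gcn5-only sites. Among shared sites the divergent share was 41.7% in the sba1 deletion list and 41.6% in the gcn5 deletion list.

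Coding-centred sites found in one strain only showed no strong preference along the gene. With each gene cut into 3 equal lengths, the sba1-only sites were centred in the 5′ part for 36.7%, the middle for 33.9% and the 3′ part for 29.4%. The gcn5-only sites were centred in the 5′ part for 35.1%, the middle for 31.9% and the 3′ part for 33.0%. Host genes were longer than the median gene in both sets. Taken over sites, the median host length was 1570 bp for sba1-only sites, in 467 hosts, and 1851 bp for gcn5-only sites, in 391 hosts. For shared coding-centred sites it was 1308 bp in the sba1 deletion list and 1380 bp in the gcn5 deletion list. All protein-coding genes had a median of 1200 bp, but no allowance was made for the greater room that a long gene offers for a midpoint.

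Among protein-coding genes, 2320 had a site overlapping the promoter window in the sba1 deletion against 2637 in the gcn5 deletion, with 1819 in common. The sba1 deletion alone had one at 501 genes and the gcn5 deletion alone at 818, which are 8.35% and 13.6% of all genes tested. Wild type had a promoter site at 10.6% (8.03 to 13.6) of the 501 genes, against 10.8% of genes with none in either deletion strain, and at 77.9% (74.9 to 80.7) of the 818. Not all are separate events. The 501 rest on 405 sites and the 818 on 705, since neighbouring genes share sites, and at 129 of the 501 and 44 of the 818 the site did overlap one of the other list outside the window. At 48.5% of the 501 genes, but 13.3% of the 818, each site reaching the window was centred in coding sequence, of the gene itself or of a neighbour. Cutting the gcn5 deletion list to its best 2438 sites made the counts 596 genes for the sba1 deletion and 598 for the gcn5 deletion. Other settings widened the gap. In the same order it was 390 against 1057 with sites set to 250 bp and 398 against 1151 without sites over 1 kb. With site midpoints required in the window it was 332 against 986.

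The highest-scored promoter sites found in the sba1 deletion only were broad. The first, 1582 bp at chromosome V 545954 to 547535, lay at PDA1, which encodes a subunit of pyruvate dehydrogenase, and scored above 82.0% of its list. ADY2, an acetate transporter gene, had one of 885 bp at chromosome III 133010 to 133894. The divergent promoter of YPI1, for a regulator of the phosphatase Glc7, and RPN11, for the deubiquitinase of the proteasome lid, had one at chromosome VI 153067 to 153632. PAH1, for the phosphatidate phosphatase of lipid synthesis, had one at chromosome XIII 592408 to 593341. The next lay at PRX1, a mitochondrial peroxiredoxin gene, with KIP1, a kinesin gene, then at RGR1, a Mediator subunit gene, with LAM6. ATO2, SDH9 and TPS3, the last a regulatory subunit gene of trehalose synthesis, with YMR262W, followed. BTN2, GDH2, which encodes the NAD-dependent glutamate dehydrogenase, and the ammonium permease gene MEP3 closed the 12. The gcn5 deletion had no promoter site at any of these genes. Only the BTN2 site of the 12 overlapped a wild-type site.

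The highest-scored promoter sites found in the gcn5 deletion only were narrower and mostly parental. After the site at GCN5 came FUR4, the uracil permease gene, with a site of 317 bp at chromosome II 280836 to 281152 that scored above 85.1% of its list. IDI1, for the isopentenyl diphosphate isomerase of sterol synthesis, and HOS3, for a histone deacetylase, share one of 882 bp at chromosome XVI 328710 to 329591. NOP12, which acts in ribosomal RNA maturation, had one at chromosome XV 252470 to 252998. NUP157, a nuclear pore gene, shares one with the meiotic gene MAM1 at chromosome V 371996 to 372504. TRS23, a TRAPP complex gene, had one at chromosome IV 954020 to 954268. IRC20 with the kinase gene RCK2, LOT6, CHP1, the phosphatase gene PPZ1, the proline synthesis gene PRO1 with CFT1, and DOP1 completed the 12. All of these but the GCN5 and TRS23 sites overlapped a wild-type site. PPZ1 had another promoter site in the sba1 deletion, and the other genes had none there.

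The best-scored sba1-only site centred in coding sequence, at chromosome V 194835 to 195948, covered much of GPA2, which encodes a G protein alpha subunit of glucose signalling: 57.9% of the gene was under sites in the sba1 deletion against 0% in the gcn5 deletion. YNL195C was covered at 100% in the sba1 deletion against 0% in the gcn5 deletion, ASR1 at 74.3% in the sba1 deletion against 0% in the gcn5 deletion, and FMP52 at 85.3% in the sba1 deletion against 0% in the gcn5 deletion. ALG3, a mannosyltransferase gene of the endoplasmic reticulum, was covered at 100% by a site of 1764 bp in the sba1 deletion against 0% in the gcn5 deletion. SWC5, a subunit gene of the SWR1 remodeller, had 83.9% in the sba1 deletion against 0% in the gcn5 deletion. RIM15, SSK1 and BBC1 are longer and had 13.8%, 36.7% and 35.9% in the sba1 deletion, against 0%, 0% and 3.86% in the gcn5 deletion. FIT1, a cell wall mannoprotein gene, had 91.6% in the sba1 deletion against 20.9% in the gcn5 deletion. Of these 10 sites the one in SSK1 overlapped a wild-type site.

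The best-scored gcn5-only sites centred in coding sequence were 205 to 505 bp wide, and 9 of 10 overlapped a wild-type site. They lay in SIP3, in ORC3, a gene of the origin recognition complex, and in RPL7B, a ribosomal protein gene with introns, which the gene span used here includes. PSF1, for a subunit of the GINS replication complex, was under sites at 0% in the sba1 deletion against 59.2% in the gcn5 deletion. NSR1, a nucleolar protein gene, had 46.2% in the sba1 deletion against 60.2% in the gcn5 deletion. NTA1, RPO31, which encodes the largest subunit of RNA polymerase III, LAM4, the histone demethylase gene JHD2 and GYP8 completed the set, each with 0% in the sba1 deletion. The RPO31 site, at chromosome XV 539734 to 539965, is the one not in wild type.

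Coverage of whole coding sequences leaned to the sba1 deletion. It was higher there for 1469 genes, higher in the gcn5 deletion for 932 and equal for 3601, of which 3444 had none in either. A difference of at least 25 percentage points was found for 633 genes, or 10.5%, in favour of the sba1 deletion and for 93 genes, or 1.55%, in favour of the gcn5 deletion. At least 50% of the coding sequence was under sites for 719 genes in the sba1 deletion against 363 in the gcn5 deletion, 314 of them in both. The mean over all genes was 13.7% in the sba1 deletion against 8.24% in the gcn5 deletion. The longest genes fully covered in one strain and bare in the other were ALG3, AVT6, a vacuolar amino acid exporter gene, YGR210C, PRY1, for a secreted sterol-binding protein, and YNL195C, each at 100% in the sba1 deletion against 0% in the gcn5 deletion. BIO4, a biotin synthesis gene, ORM2, for a regulator of sphingolipid synthesis, and RGM1 had the same values, and 42 genes did so in all.

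Genes at 0% in the sba1 deletion but covered at 100% in the gcn5 deletion numbered 6, and all were short. The longest were YMR158C-A, of 138 bp, and YLR264C-A, of 117 bp, and RPL41A, which encodes a ribosomal protein of very few residues, was 78 bp long. YGL007C-A and YDL159W-A followed, with 2.30% for YGL007C-A and 6.06% for YDL159W-A in the sba1 deletion against 100% in the gcn5 deletion. Among coding sequences of at least 300 bp, a limit set after these short genes were seen, the leading ones were YDR102C and DPP1, the vacuolar diacylglycerol pyrophosphate phosphatase gene. DPP1 had 1.26% in the sba1 deletion against 66.3% in the gcn5 deletion. RPO26, for a subunit common to the nuclear RNA polymerases, had 8.64% in the sba1 deletion against 70.0% in the gcn5 deletion, and EXP1 had 0% in the sba1 deletion against 60.9% in the gcn5 deletion.

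**Figure D4:**
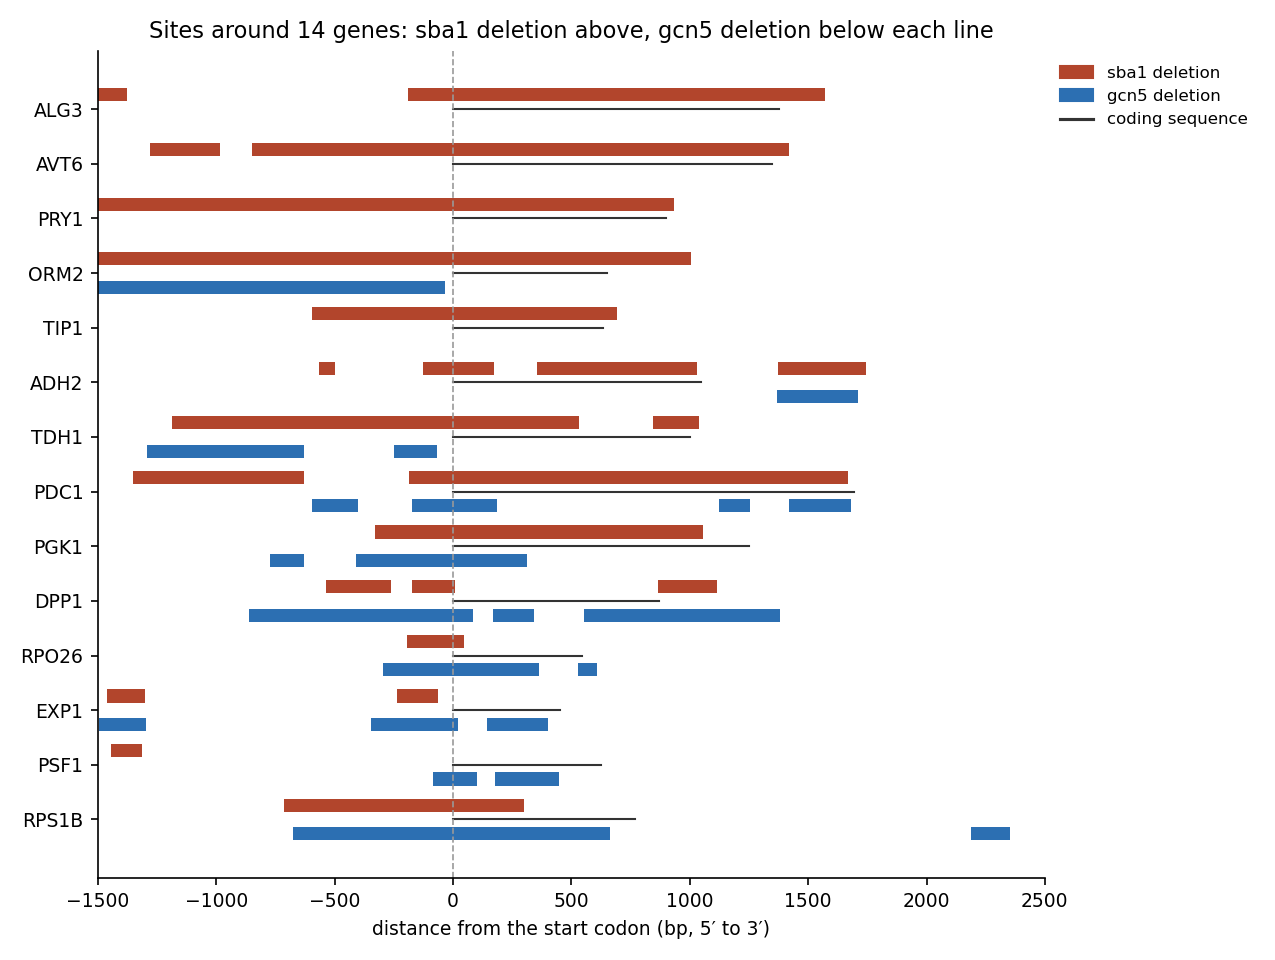
Sites of the sba1 deletion (above each line) and of the gcn5 deletion (below it) around the start codons of 14 genes, with distance in base pairs and the coding sequence as a black line. In the upper 9 genes, ALG3 to PGK1, sba1 deletion sites run through coding sequence, and in the lower 5, DPP1 to RPS1B, gcn5 deletion sites cover more of it.

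Gene groups divided along these lines. Glycolysis and fermentation genes, which turn glucose into ethanol, had the widest gap in coding coverage, with means of 50.1% in the sba1 deletion against 17.7% in the gcn5 deletion. Coverage was higher in the sba1 deletion for 17 of the 22 genes, against 2 in the gcn5 deletion. At least 25 points separated 16 of them, 72.7% against 10.5% of all genes, and the median difference was 32.1 points against 0 for all genes. PDC1, the main pyruvate decarboxylase gene, had 98.5% in the sba1 deletion against 34.1% in the gcn5 deletion. PGK1, for phosphoglycerate kinase, had 84.4% in the sba1 deletion against 24.9% in the gcn5 deletion. ADH1, the fermentative alcohol dehydrogenase gene, had 100% in the sba1 deletion against 51.3% in the gcn5 deletion, and CDC19, for pyruvate kinase, had 83.3% in the sba1 deletion against 49.4% in the gcn5 deletion. TDH1 and ADH2, an isozyme gene each for glyceraldehyde phosphate dehydrogenase and alcohol dehydrogenase, had 68.6% and 81.2% in the sba1 deletion against 0% in the gcn5 deletion. HXK1 had 25.4% in the sba1 deletion against 28.5% in the gcn5 deletion, and PGI1 had 12.0% in the sba1 deletion against 18.4% in the gcn5 deletion, while TPI1 and PFK1 had none in either strain and GLK1 had 100% in both. The number past 25 points was 5 with every site set to 250 bp and 7 without sites over 1 kb. Several of these genes have near-identical copies, and the sources used here do not say how reads common to them were placed.

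Cell wall genes came next, with mean coding coverage of 35.4% in the sba1 deletion against 8.13% in the gcn5 deletion. Of 37 members 14, or 37.8%, were at least 25 points higher in the sba1 deletion, against 10.5% of all genes. By any amount 16 were higher in the sba1 deletion against 6 in the gcn5 deletion. Over all 6002 genes these counts were 1469 against 932, in the same order. Mean coverage of all genes was 13.7% for the sba1 deletion against 8.24% for the gcn5 deletion. TIP1 and SPI1, for mannoproteins of the wall, had 100% in the sba1 deletion against 0% in the gcn5 deletion. HSP150 had 97.6% in the sba1 deletion against 1.29% in the gcn5 deletion, and CWP2, another mannoprotein gene, had 100% in the sba1 deletion against 7.53% in the gcn5 deletion. TIP1, TIR3, KRE9 and CCW14, or 10.8%, had a promoter site in the sba1 deletion only. CHS2, a chitin synthase gene, and BGL2, or 5.41%, had one in the gcn5 deletion only. All genes gave 8.35% for the sba1 deletion and 13.6% for the gcn5 deletion. At TIR3 the sba1 deletion site overlapped a gcn5 deletion site outside the window. For cell wall genes the order turned to 3 against 11 without sites over 1 kb and to 1 against 8 where the window had to hold a site's midpoint. The number past 25 points was 5 with sites set to 250 bp and 6 without sites over 1 kb.

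General stress genes, induced on heat, oxidative or nutrient stress, had mean coverage of 31.6% in the sba1 deletion against 17.1% in the gcn5 deletion, and 8 of 33 were at least 25 points higher in the sba1 deletion, or 24.2%. All genes gave means of 13.7% for the sba1 deletion and 8.24% for the gcn5 deletion, with 10.5% past 25 points. GRE1 had 100% in the sba1 deletion against 0% in the gcn5 deletion, GPD1, for glycerol phosphate dehydrogenase, 80.9% in the sba1 deletion against 18.6% in the gcn5 deletion, and HSP12 50.9% in the sba1 deletion against 0% in the gcn5 deletion. Of general stress genes 12.1% had a promoter site in the sba1 deletion only and 3.03% in the gcn5 deletion only. All genes gave 8.35% and 13.6%. The stress genes with one in the sba1 deletion only were TPS2, TRX2, DDR48 and GRE1, and in the gcn5 deletion only GRE2. That order turned with sites set to 250 bp, with 2 genes in the sba1 deletion only and 7 in the gcn5 deletion only, without sites over 1 kb, with 3 against 9, and with site midpoints required in the window, with 4 against 7. Respiratory chain and TCA cycle genes had means of 21.8% in the sba1 deletion against 9.10% in the gcn5 deletion, and 9 of 39 were at least 25 points higher in the sba1 deletion. COX7, a cytochrome oxidase subunit gene, had 87.4% in the sba1 deletion against 0% in the gcn5 deletion, CYT1, for cytochrome c1, 62.9% in the sba1 deletion against 0% in the gcn5 deletion, and the fumarase gene FUM1 69.3% in the sba1 deletion against 23.5% in the gcn5 deletion.

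For methionine and sulfur genes the balance differed between the measures, as it did over all genes. Mean coding coverage was 28.7% in the sba1 deletion against 12.4% in the gcn5 deletion, with CYS3, for cystathionine gamma-lyase, at 100% in the sba1 deletion against 4.39% in the gcn5 deletion. The regulator gene MET28 stood at 100% in the sba1 deletion against 23.8% in the gcn5 deletion. Promoter sites were found in the sba1 deletion only at 2 of 29, STR3 and the sulfate permease gene SUL2, and in the gcn5 deletion only at 6, MET8, SUL1, SAH1, CYS4, MET14 and MET7. These are 6.90% and 20.7%, where all genes gave 8.35% and 13.6%. At MET14 the gcn5 deletion site overlapped an sba1 deletion site that lay outside the window. At SUL2 the sba1 deletion site likewise overlapped a gcn5 deletion site outside the window. Amino acid biosynthesis genes had means of 20.6% in the sba1 deletion against 7.95% in the gcn5 deletion, and 26 of 51 were higher in the sba1 deletion against 5. THR1, the homoserine kinase gene, had 94.6% in the sba1 deletion against 0% in the gcn5 deletion, ARO2, for chorismate synthase, 85.6% in the sba1 deletion against 0% in the gcn5 deletion, and ILV5, of branched-chain synthesis, 93.7% in the sba1 deletion against 14.1% in the gcn5 deletion. ARO2, THR1 and ARG3, or 5.88%, had a promoter site in the sba1 deletion only and ARO4, ARO3, PRO1 and ILV1, or 7.84%, in the gcn5 deletion only. This near balance became 1 gene against 13 with sites set to 250 bp, 1 against 9 without sites over 1 kb and 3 against 10 with site midpoints required in the window, and with a 1000 bp window it turned to 5 against 2. At least 25 points higher in the sba1 deletion were 8 amino acid genes (15.7%) and 7 methionine and sulfur genes (24.1%), against 10.5% of all genes. With sites set to 250 bp, 1 amino acid, 1 general stress, 1 respiratory and 0 methionine genes were. Without sites over 1 kb it was 3, 3, 4 and 2 in the same order.

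Ribosome biogenesis genes, which process ribosomal RNA and assemble subunits in the nucleolus, leaned to the gcn5 deletion in promoter sites. Promoter sites were found in the sba1 deletion only at 4 of 55, or 7.27%, and in the gcn5 deletion only at 16, or 29.1%, where all genes gave 8.35% for the sba1 deletion and 13.6% for the gcn5 deletion. The 16 were UTP20, NOP14, MAK21, UTP4, NOP16, LOC1, NOP7, NSR1, UTP18, EBP2, UTP13, UTP15, NOP15, NOP12, NOC2 and RRP12. The 4 were ENP1, DBP10, UTP7 and NOG1. At LOC1 the gcn5 deletion site scored above 93.4% of its list and overlapped an sba1 deletion site outside the window. Over the alternative settings the counts ran from 2 to 5 in the sba1 deletion and from 10 to 18 in the gcn5 deletion. Coding coverage was low in both strains, with means of 5.00% in the sba1 deletion against 3.81% in the gcn5 deletion, and 41 of 55 genes were equal. GAR1, for a protein of the pseudouridylation particles, had 100% in the sba1 deletion against 0% in the gcn5 deletion.

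Pheromone response and mating genes leaned the same way. Promoter sites were found in the sba1 deletion only at 2 of 28, STE14 and STE24, or 7.14%, and in the gcn5 deletion only at 8, or 28.6%. All genes gave 8.35% for the sba1 deletion and 13.6% for the gcn5 deletion. The 8 were the scaffold gene STE5, the kinase genes STE11 and KSS1, the G protein gamma subunit gene STE18, the regulator gene SST2, the protease gene BAR1 and the agglutinin genes AGA1 and AGA2. The sites at STE24, KSS1 and STE5 overlapped a site of the other list outside the window. Over the alternatives the counts ran from 1 to 3 in the sba1 deletion and from 6 to 10 in the gcn5 deletion. Coding coverage was nearly equal, at 6.53% in the sba1 deletion against 6.49% in the gcn5 deletion.

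Among translation genes, none of 35 translation factor and aminoacyl-tRNA synthetase genes had a promoter site in the sba1 deletion only, and SUP45, PAB1, VAS1, MES1, TIF1, YEF3 and CDC33, or 20.0%, had one in the gcn5 deletion only, where all genes gave 8.35% for the sba1 deletion and 13.6% for the gcn5 deletion. Over the alternatives the counts ran from 0 to 3 for the sba1 deletion and from 4 to 10 for the gcn5 deletion. Cytosolic ribosomal protein genes had one in both strains at 91 of 137. In the sba1 deletion only it was 3, or 2.19%, below the 8.35% of all genes. In the gcn5 deletion only it was 20, or 14.6%, near the 13.6% of all genes. Counting only the better-scored 50% of each strain's sites, it was 14 genes in the sba1 deletion only against 16 in the gcn5 deletion only. Their mean coding coverage was 15.4% in both strains, with 9 members at least 25 points higher in the sba1 deletion against 10 in the gcn5 deletion. These are 6.57% and 7.30%, where all genes gave 10.5% for the sba1 deletion and 1.55% for the gcn5 deletion. RPS1B had 39.1% in the sba1 deletion against 86.6% in the gcn5 deletion, and RPL36B 100% in the sba1 deletion against 54.0% in the gcn5 deletion. Most of these genes have a near-identical copy, which makes single members uncertain. Mitochondrial ribosomal protein genes had promoter sites in the sba1 deletion only at 4 of 69, or 5.80%, and in the gcn5 deletion only at 10, or 14.5%, near the 13.6% of all genes.

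Proteasome and ubiquitin genes had promoter sites in the sba1 deletion only at RPN6 and RPN11 and in the gcn5 deletion only at 8 of 38, RPN5, UBC5, SCL1, RPN1, RPN2, RPT1, RPN13 and PRE8. These are 5.26% and 21.1%, where all genes gave 8.35% for the sba1 deletion and 13.6% for the gcn5 deletion. Among the better-scored 50% of sites these counts were 1 for the sba1 deletion and 2 for the gcn5 deletion. In coding sequence the proteasome core genes PRE6 and PUP3 had 90.8% and 90.0% in the sba1 deletion against 0% in the gcn5 deletion. Secretion and Golgi genes had promoter sites in the sba1 deletion only at 5 of 54 (9.26%), COP1, YPT1, EMP24, OCH1 and HOC1, and in the gcn5 deletion only at 9, ERP2, SEC17, ARF1, MNN10, TRS23, SEC27, SEC22, TRS33 and SEC16, or 16.7%. Both shares were close to the 8.35% and 13.6% of all genes, and among the better-scored 50% of sites the counts were 7 for each strain. At COP1, EMP24, HOC1 and ERP2 the site overlapped a site of the other list outside the window. YPT1, for a Rab GTPase of traffic to the Golgi, had coding coverage of 97.4% in the sba1 deletion against 0% in the gcn5 deletion. SEC61, for the translocon pore, had 78.9% in the sba1 deletion against 0% in the gcn5 deletion.

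For chaperone and chromatin machineries, the counts were small. Of 30 SAGA and NuA4 genes TAF5 had a promoter site in the sba1 deletion only and UBP8 and GCN5 in the gcn5 deletion only, which are 3.33% and 6.67%, and 20 had none in either. The GCN5 site counted here is the one next to the deleted gene itself. SGF29, for a SAGA subunit that reads histone methylation, had coding coverage of 100% in the sba1 deletion against 28.3% in the gcn5 deletion, while SUS1 had 0% in the sba1 deletion against 32.2% in the gcn5 deletion. Of 28 chaperone genes the co-chaperone genes CPR6 and HCH1 had a promoter site in the sba1 deletion only, and SSA4, PPT1 and CPR7 in the gcn5 deletion only. These are 7.14% and 10.7%, near the 8.35% and 13.6% of all genes, and with a 250 bp window or with site midpoints required in it the order turned, to 2 genes in the sba1 deletion only against 1 in the gcn5 deletion only. At CPR6, HCH1 and SSA4 the site overlapped a site of the other list outside the window. The co-chaperone gene TAH1 had coding coverage of 100% in the sba1 deletion against 15.2% in the gcn5 deletion. Among 31 chromatin remodeller genes CHD1, SWI3 and IOC2, or 9.68%, had a promoter site in the sba1 deletion only and SWP82, or 3.23%, in the gcn5 deletion only. All genes gave 8.35% for the sba1 deletion and 13.6% for the gcn5 deletion. For the remodeller genes the order turned to 3 against 4 without sites over 1 kb and to 2 against 3 with site midpoints required in the window. RSC8 had coding coverage of 100% in the sba1 deletion against 8.66% in the gcn5 deletion. Of 11 histone genes HTA2, or 9.09%, had a promoter site in the sba1 deletion only, near the 8.35% of all genes. That site, at chromosome II 235931 to 235942, was among the lowest-scored of its list and absent from its better-scored 50%.

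DNA replication genes had promoter sites in the sba1 deletion only at 4 of 37 (10.8%), MCM7, MCM3, MCM6 and POL2, and in the gcn5 deletion only at 5, ORC2, RFC5, PSF1, RNR1 and RFC4, or 13.5%, near the 8.35% and 13.6% of all genes. MCM3, a subunit gene of the replicative helicase, had coding coverage of 52.1% in the sba1 deletion against 6.38% in the gcn5 deletion. Its promoter site overlapped a gcn5 deletion site outside the window. Sterol and fatty acid synthesis genes had promoter sites in the sba1 deletion only at 2 of 31, ERG2 and MVD1, and in the gcn5 deletion only at 2, HMG1 and IDI1. These are 6.45% each, where all genes gave 8.35% for the sba1 deletion and 13.6% for the gcn5 deletion. At MVD1 the sba1 deletion site overlapped a gcn5 deletion site outside the window. OPI3, of phosphatidylcholine synthesis, had coverage of 100% in the sba1 deletion against 17.2% in the gcn5 deletion. Of 21 hexose transport genes MIG2, or 4.76%, had a promoter site in the sba1 deletion only, and SNF3 and HXT1, or 9.52%, in the gcn5 deletion only. This order turned to 2 against 0 among the better-scored 50% of sites and with lists of equal length. No member differed by 25 points in coding coverage.

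**Figure D5:**
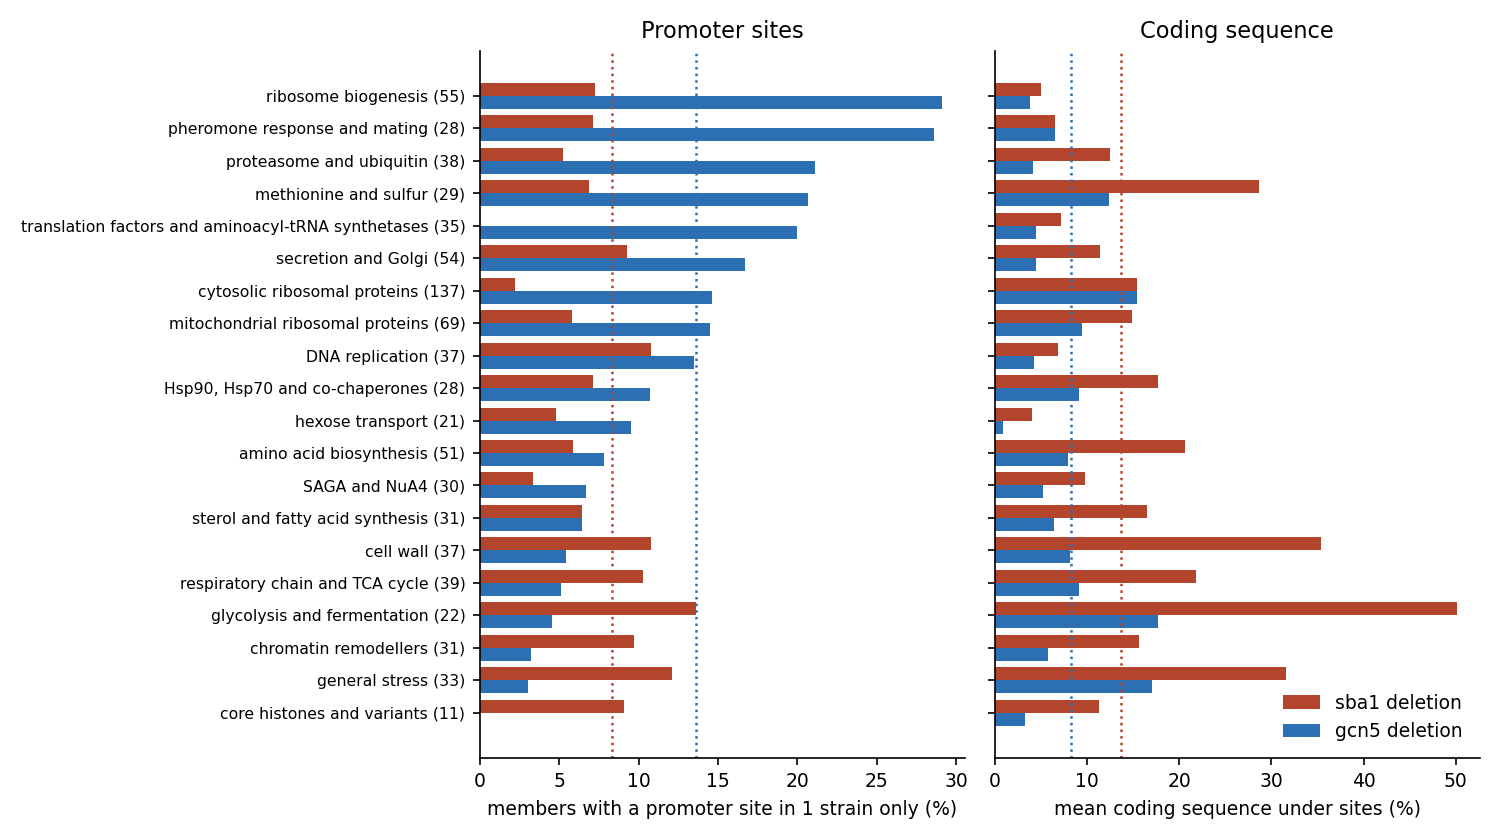
Left, percent of each group's members with a promoter site in the sba1 deletion only or in the gcn5 deletion only; right, mean percent of coding sequence under sites in each strain; group size in brackets and dotted lines for all 6002 genes. Ribosome biogenesis leads the gcn5-only promoter shares at 29.1%, and glycolysis and fermentation leads sba1 deletion coding coverage at 50.1%.

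Transfer RNA genes gave equal totals with partly different members. A site overlapped 120 of 275 nuclear transfer RNA genes in each strain, but 89 were common to both, so 31 were found in the sba1 deletion only and another 31 in the gcn5 deletion only. Of 76 small nucleolar RNA genes, which guide modification of ribosomal RNA, 21 had a site in the sba1 deletion against 28 in the gcn5 deletion. SNR18, SNR60, SNR81 and SNR8 had one in the sba1 deletion only and 11 in the gcn5 deletion only, among them SNR13, SNR52 and SNR190. These counts are of sites over the RNA gene itself. For promoter windows, a different measure, all protein-coding genes gave 8.35% for the sba1 deletion only and 13.6% for the gcn5 deletion only. Transfer RNA genes also come in copies, and how reads common to them were placed is not stated in the sources used here.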

How the data were processed

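DNase-seq site lists of 3 strains were used, 1 per library, without headers: chromosome, start, end, name and score. The submitters' processing notes name the aligner Bowtie, version 0.12.7, and the build sacCer3, without further detail. Not given in the sources used here are the peak caller, its threshold, the DNase I level sequenced and the read depth. The score deposited by the authors has no stated scale and only ranked sites within a list. Positions and other coordinate values are as the authors deposited them, printed 1-based.

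The gene table was RefSeq R64, taken as the sacCer3 sequence: 6477 genes, 6431 of them nuclear, 6002 protein-coding with a start codon window. Strand was read from systematic names. Of 818 names in 20 gene lists, 816 matched. The mitochondrial chromosome, 1 site in each list, was left out. Ribosomal DNA and subtelomeric sites were kept and also counted apart.

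Shared means at least 1 bp of overlap. Named were SBA1, GCN5, HSP82, HSC82, the 12 best-scored promoter and 10 best-scored coding sites of each strain only, the 8 genes with the largest coverage difference each way, sites joining most sites of the other list (up to 5), and up to 4 members of each list by coverage or promoter site score. Counts of few members are named in full, and some genes were named after their values were seen. For the gene lists, overlap with the other list outside the window is stated only for members among the up to 4 with the best promoter site score. The ranking of coding sequences of at least 300 bp was added after the data were seen. Members, lists and alternatives were chosen with earlier results of these data known. No sequence was used. Overlap and coverage code was checked on lists with planted changes. Scripts ran in Python 3.11.15 with pandas 2.3.3, numpy 2.4.6 and scipy 1.17.1, and figures were drawn with matplotlib 3.10.9.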

Additional observations from a re-analysis of the deposited data

How the results depend on the processing

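No paired analysis was possible because each strain has 1 library. There were 10 alternatives for 10 results. Counts of sites or genes that stayed within 1.5 times of their main value are mostly left out below. Asking for 50% overlap of both sites gave 1431 sba1-only and 2054 gcn5-only sites, coding shares of 57.0% for the sba1-only sites, and 42.6% of sba1-only sites in wild type. The better-scored 50% of each list gave 412 sba1-only and 649 gcn5-only sites, coding shares of 67.5% for sba1-only and 21.7% for gcn5-only sites, wild-type shares of 25.2% for sba1-only and 96.8% for gcn5-only sites, a coding base ratio of 1.96 and a matched width ratio of 1.18. Equal numbers of best-scored sites gave 761 gcn5-only sites, a coding share of 32.7% for them, wild-type shares of 12.8% for sba1-only and 85.9% for gcn5-only sites, and a coding base ratio of 1.92. Sites set to 250 bp gave a coding share of 68.1% and a wild-type share of 18.7% for sba1-only sites and a coding base ratio of 1.07. Without sites over 1 kb the sba1-only wild-type share was 12.5%, the coding base ratio 1.24 and the matched width ratio 0.860, and without ribosomal DNA and subtelomeric sites the coding base ratio was 1.80. With site midpoints required in the window, 332 genes had a promoter site in the sba1 deletion only and 986 in the gcn5 deletion only. In each of the 7 settings that bear on them, the share centred in coding sequence was higher, and the share in wild type lower, for sba1-only than for gcn5-only sites. The wild-type list was left unaltered in each setting, and overlap with it was always counted from 1 bp. The wild-type shares thus set altered deletion lists against an unaltered list. Of 540 counts for the gene lists, 139 moved by over 1.5 times or between none and some. The setting of 50% overlap could not move any of these counts, since they do not use overlap between the lists. The cause of these shifts was not tested. With unknown read depth, a site missing from a list cannot be read as closed chromatin.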
